A study of Rattus norvegicus with 22 samples.

Results

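Translation factors carry the ribosome through initiation, elongation and termination on an mRNA, and poly(A) binding proteins coat the mRNA tail and tie it to the initiation machinery. The genes described here are the rat genes whose symbols begin with Eif, Eef, Etf1, Gspt, Pabpc or Paip and whose RefSeq accession was matched to a probe of the array. They came to 68 genes, 1 probe each, of 15144 genes with a symbol on the array. A gene with several probes was represented by the one that was brightest on average across the 22 arrays.

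RNA from male germ cells was measured on 22 one-colour arrays, and the design asked how chronic exposure to cyclophosphamide, an alkylating anticancer drug, changes the transcripts of 2 germ cell types. Cyclophosphamide (6 mg/kg) or saline was given by gavage on 6 days of the week for 4 weeks, and the strain and age are not given in the sources used here. Pachytene spermatocytes, the cells of meiotic prophase, and round spermatids, the haploid cells that follow meiosis, were separated by sedimentation at unit gravity. The groups were pachytene spermatocytes of saline rats (n = 5; rats 13, 16, 25, 26 and 28), pachytene spermatocytes of cyclophosphamide rats (n = 5; rats 7, 15, 16-2011, 16-2012 and 29), round spermatids of saline rats (n = 6) and round spermatids of cyclophosphamide rats (n = 6). Each array was taken as 1 rat, although 16-2011 and 16-2012 carry the same rat number and the labels do not say whether they are 1 animal. Some rat numbers occur in both cell types of a treatment, and the labels do not say whether they name the same animal. Some numbers also occur in both treatments.

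In initiation, eIF2 brings the initiator tRNA to the small ribosomal subunit, eIF2B recharges eIF2 with GTP, and the eIF4 factors bind the cap and unwind the leader of the mRNA, with poly(A) binding protein joining from the other end. Elongation factors eEF1 and eEF2 deliver tRNAs and move the ribosome, and eRF1 with eRF3 release the finished chain. Germ cells are known for making many mRNAs well before they are translated. Spermatids store transcripts, among them those of the protamines, and translate them days later, when the nucleus condenses and transcription has stopped.

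Levels are given as log2 of the processed signal relative to the 75th percentile of the array, so that a level of 0 lies at that percentile, and levels of different probes cannot be ranked against each other. The 75th percentile lay between 1068 and 2417 intensity units, the share of probes well above background was 65.3% to 76.4%, and arrays of the same group correlated at 0.981 to 0.991. Of the cell type markers, 19 of 20 tested round spermatid genes were higher and 11 of 17 pachytene genes lower in round spermatids than in pachytene spermatocytes of saline rats, while 3 pachytene markers were higher. Markers of other cell types also differed between the fractions of saline rats, and purity was not tested here. Spermatogonia markers were higher in the round spermatid fraction (4 of 7 tested, and 1 lower). Sertoli cell markers were higher in the pachytene fraction (11 of 15 tested, and 1 lower), with array means of -1.62 to -1.06 there and -3.35 to -2.56 in round spermatids of saline rats. Leydig cell markers were higher there too (7 of 8). Macrophage and leukocyte markers were higher in the round spermatid fraction (10 of 10), with array means of -3.46 to -2.98 in pachytene and -1.42 to -0.02 in round spermatid fractions of saline rats, and so were peritubular myoid markers (6 of 7). The part of these other cells in the values below was not tested. In such bulk fractions, fewer cells of a type and less RNA per cell cannot be told apart. P-values measure the spread between these arrays.

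In the saline rats, 66 of the 68 genes were bright enough to be tested. Pabpc4l and Pabpc5, which encode relatives of the main poly(A) binding protein, did not rise well above background on any of the arrays. Of the 66, 31 were higher in pachytene spermatocytes (47% of them) and 19 were higher in round spermatids (28.8%), by limma at a Benjamini-Hochberg adjusted p under 0.05 over all genes tested. Over all 19823 genes and unnamed probes tested, 36.9% were higher in pachytene spermatocytes and 38.5% in round spermatids. The median log2 difference, round spermatids minus pachytene spermatocytes, was -0.23 over the translation genes and 0.01 over all genes. By more than 2-fold, 15 of the genes were higher in pachytene spermatocytes (22.7%) and 10 in round spermatids (15.2%), against 20.7% and 25.6% of all genes tested. The 19 hold Eif3j, Eif4b, Eif4e and Eif4e3, whose other probes passed in the opposite direction. Of these, Eif3j, Eif4e and Eif4e3 are also among the 10. Every round spermatid array lay below every pachytene array for 26 of them (28.4% of all genes tested) and above for 14 (29% of all genes tested). Several sets of related genes held members with opposite directions, and the genes are described by role.

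**Figure D1:**
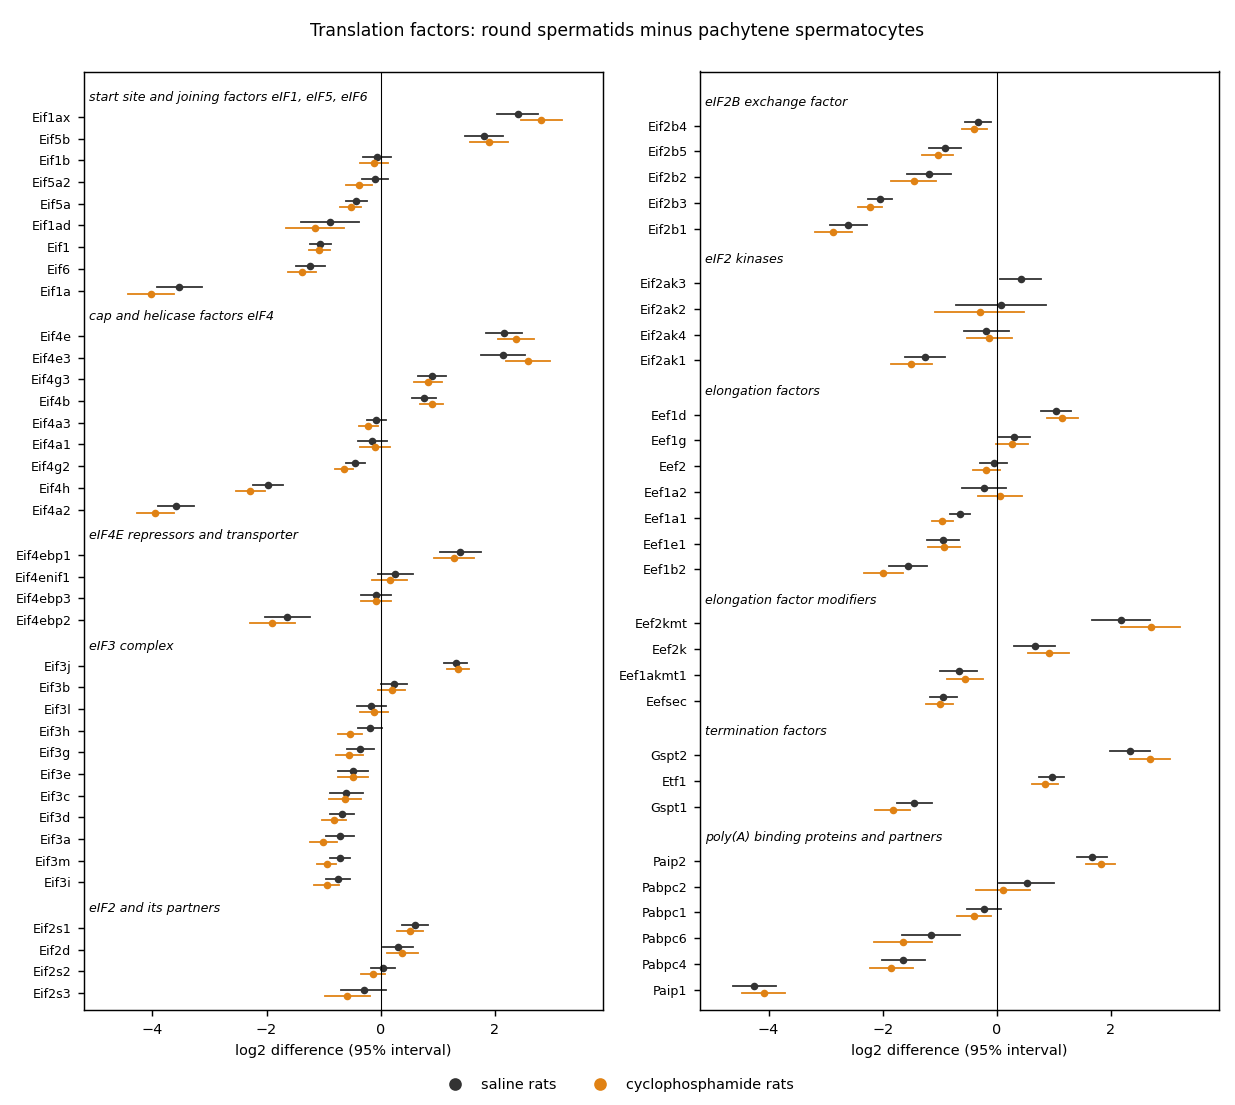
Log2 difference between round spermatids and pachytene spermatocytes (x axis; points, limma estimates; bars, 95% intervals) for each tested gene, grouped by role, in saline rats (dark) and cyclophosphamide rats (orange). Paip1, Eif4a2 and Eif1a lie farthest to the left, at -4.25, -3.59 and -3.53 in saline rats, and Eif1ax and Gspt2 farthest to the right, at 2.40 and 2.33; all 5 eIF2B genes lie to the left of 0.

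Among the factors that find the start codon and join the subunits, 5 of 9 tested genes were higher in pachytene spermatocytes and 2 in round spermatids. The probes for the scanning factor eIF1A went opposite ways. Eif1a (chromosome 18 from 41512298 to 41524645 of GRCr8) had levels of 0.31, -0.28, 0.12, 0.51 and 0.19 in the pachytene spermatocytes of saline rats 13, 16, 25, 26 and 28, and of -3.99, -3.37 and -2.73 (lowest, median and highest) in the round spermatids of the 6 saline rats. Each round spermatid array was lower than each pachytene array, which gave an 11.5-fold higher level in the pachytene cells (95% interval 8.73 to 15.2; log2 difference -3.53 ± 0.19 SE; limma adjusted p = 8.07e-13).

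Eif1ax (chromosome X from 39307320 to 39322023) had levels of 0.20, -0.01, -0.28, -0.90 and -0.55 in the same pachytene arrays and of 1.71, 2.14 and 2.30 (lowest, median and highest) in round spermatids. Here each round spermatid array was the higher, by 5.29-fold on average (4.13 to 6.79; limma adjusted p = 3.33e-11). A dimmer probe of Eif1ax, above background on 4 of the 5 pachytene arrays, differed by 0.34 ± 0.24 on the log2 scale and did not pass (limma adjusted p = 0.199).

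The other start site factors were mostly higher in pachytene spermatocytes. Eif1, which guards start codon choice, was 2.09-fold higher there, Eif6, which keeps large ribosomal subunits from joining too early, 2.35-fold, Eif1ad, which holds an eIF1A domain, 1.84-fold and Eif5a, the hypusine-bearing factor, 1.34-fold. Eif5b, the GTPase that joins the ribosomal subunits, was 3.50-fold higher in round spermatids (2.80 to 4.39). Eif1b and Eif5a2, the close relatives of Eif1 and Eif5a, differed by -0.06 ± 0.12 and -0.10 ± 0.11 on the log2 scale and did not pass, although Eif1b did with quantile normalization (-0.28).

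All 5 genes of eIF2B, the exchange factor that returns eIF2 to its active form, were higher in pachytene spermatocytes. Eif2b1 had levels of 0.44, 0.20, 0.37, 0.81 and 0.51 in the pachytene arrays of rats 13, 16, 25, 26 and 28, and of -2.62, -2.09 and -1.69 (lowest, median and highest) in round spermatids. The groups did not overlap, and Eif2b1 was 6.07-fold higher in pachytene spermatocytes (4.84 to 7.61). Eif2b3 was 4.13-fold higher there (3.57 to 4.79), by a second probe 4.21-fold, and Eif2b2, Eif2b5 and Eif2b4 were 2.28-fold, 1.88-fold and 1.26-fold higher. The call of Eif2b4 ended with slide as a block (-0.25).

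The genes of eIF2 itself did not share that direction. Eif2s1, the eIF2 alpha subunit that the stress kinases phosphorylate, was 1.52-fold higher in round spermatids (1.30 to 1.78), and Eif2d, which can place tRNA on the ribosome without eIF2, was 1.23-fold higher there. The call of Eif2d ended without saline pachytene rat 13 or 16 or saline round spermatid rat 15, 17 or 25 (log2 differences of 0.25 to 0.30), and with slide as a block (0.25). Eif2s2 and Eif2s3, the beta and gamma subunits, differed by 0.04 ± 0.10 and -0.30 ± 0.19 on the log2 scale and did not pass, although Eif2s3 passed at -0.42 without saline round spermatid rat 17 and at -0.67 with the mean of its probes. Of the kinases, Eif2ak1, which responds to low heme, was 2.40-fold higher in pachytene spermatocytes (1.87 to 3.07). Eif2ak4, which senses amino acid shortage, differed by -0.19 ± 0.19 and did not pass. Eif2ak2, which binds double-stranded RNA, was well above background on 4 of 5 saline pachytene and 4 of 6 saline round spermatid arrays and differed by 0.07 ± 0.38. Eif2ak3, the kinase of endoplasmic reticulum stress, was well above background on 3 and 5 of these arrays. Its difference of 0.42 ± 0.18 passed (limma adjusted p = 0.0369) but was -0.02 with normexp background correction (limma adjusted p = 0.874), and it no longer passed without saline pachytene rat 16 or 26 (0.35 and 0.29) or saline round spermatid rat 16, 17 or 25 (0.38, 0.31 and 0.40).

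The eIF3 genes, whose products form the large scaffold on the small subunit, mostly differed by less than 2-fold. Of 11 genes, 7 were higher in pachytene spermatocytes, by 1.28-fold for Eif3g to 1.68-fold for Eif3i, and Eif3m was 1.64-fold higher (1.46 to 1.84). The call of Eif3g ended with slide as a block (-0.22). Eif3b, Eif3h and Eif3l did not pass. Eif3b passed without saline pachytene rat 13 or 26 or round spermatid rat 16 (0.27, 0.34 and 0.27), Eif3h without saline pachytene rat 16 or round spermatid rat 29 (-0.25 and -0.23), and Eif3h and Eif3l with quantile normalization (-0.47 and -0.43). Eif3j, a loosely bound subunit that is also known from ribosome recycling, was 2.48-fold higher in round spermatids (2.17 to 2.85), but a second probe of it was 1.41-fold higher in pachytene spermatocytes (limma adjusted p = 0.000331).

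The gene of the helicase eIF4A2 had the second largest difference of the 66. Eif4a2 (chromosome 11 from 91268730 to 91276738) had levels of 2.27, 2.07, 2.41, 2.28 and 2.34 in the pachytene spermatocytes of saline rats 13, 16, 25, 26 and 28, and of -1.82, -1.40 and -0.63 (lowest, median and highest) in round spermatids. The cell types did not overlap, and Eif4a2 was 12.0-fold higher in pachytene spermatocytes (9.64 to 15.0; log2 difference -3.59 ± 0.15 SE; limma adjusted p = 2.32e-14). Its paralogs did not pass. Eif4a1 differed by -0.15 ± 0.12 and Eif4a3, the helicase of the exon junction complex, by -0.07 ± 0.08. With quantile normalization Eif4a3 passed at -0.35. A second probe of Eif4a1 was 2.26-fold higher in pachytene spermatocytes (limma adjusted p = 1.51e-09), and the mean of its probes passed at -0.66. Both probes lay on the pachytene side, but only 1 passed, and the array does not settle the size for Eif4a1. Over the alternatives run, its estimates lay between -1.18 and 0.01. Eif4a1 also has 8 pseudogenes by name in the RefSeq table, whose transcripts a probe could pick up. Eif4h, which stimulates the helicase, was 3.92-fold higher in pachytene spermatocytes (3.28 to 4.70).

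For the cap-binding protein the probes disagreed. The brighter probe of Eif4e had levels of 2.84, 2.39, 2.18, 2.04 and 2.05 in the saline pachytene arrays and of 4.17, 4.50 and 4.65 (lowest, median and highest) in round spermatids, 4.48-fold higher there (3.61 to 5.57). The dimmer probe, matched to the same accession, had mean levels of -1.94 ± 0.47 (SD, n = 5) and -4.44 ± 0.50 (SD, n = 6) and was 5.65-fold higher in pachytene spermatocytes (limma adjusted p = 2.58e-10). Both were well above background on each of these arrays, so no direction is drawn for Eif4e. Eif4e3, a divergent cap-binding relative, was likewise 4.41-fold higher in round spermatids by its brighter probe and 1.52-fold higher in pachytene spermatocytes by the other, which was well above background on 3 of 6 round spermatid arrays (limma adjusted p = 0.0462). Eif4b, which aids the helicase and is named here after its values were seen, was 1.69-fold higher in round spermatids by its brighter probe and 3.96-fold higher in pachytene spermatocytes by the other.

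Of the eIF4G scaffolds, Eif4g3, which male meiosis in the mouse needs, was 1.87-fold higher in round spermatids (1.58 to 2.21). Eif4g2, a scaffold that lacks the eIF4E-binding part, was 1.36-fold higher in pachytene spermatocytes. Its 2 other probes were 7.77-fold and 1.37-fold higher in the same cells, so the direction was shared and the size was not. The repressors that block eIF4E until they are phosphorylated split as well. Eif4ebp2 had levels of -1.66, -0.96, -0.95, -1.07 and -0.95 in the saline pachytene arrays and of -3.25, -2.62 and -2.40 (lowest, median and highest) in round spermatids, 3.12-fold lower there (2.37 to 4.10). Eif4ebp1 had levels of -1.01, -1.53, -1.22, -1.02 and -0.92 in the pachytene arrays and of -0.20, 0.16 and 0.69 in round spermatids, 2.63-fold higher there (2.05 to 3.37). In neither gene did the arrays of the cell types overlap. Eif4ebp3 and the eIF4E transporter Eif4enif1 differed by -0.08 ± 0.13 and 0.26 ± 0.15 and did not pass.

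Among the elongation factors, the exchange subunits of eEF1 went both ways. Eef1a1, which delivers tRNAs, was 1.56-fold higher in pachytene spermatocytes (1.38 to 1.77), although 20 pseudogenes carry its name in the RefSeq table and may share its probe. Eef1a2, its tissue-restricted relative, differed by -0.23 ± 0.18, did not pass, and passed at -0.40 without saline pachytene rat 16. Of the exchange subunits of eEF1, Eef1b2 was 2.94-fold higher in pachytene spermatocytes (2.32 to 3.71), whereas Eef1d was 2.05-fold higher in round spermatids (1.70 to 2.47), by a second probe 2.30-fold. Eef1g was 1.24-fold higher in round spermatids, with 16 pseudogenes of that name. Its call ended without saline pachytene rat 16, 25 or 28 or saline round spermatid rat 17, 25, 28 or 29 (log2 differences of 0.25 to 0.31), and with slide as a block (0.30). A second probe of Eef1g was 1.34-fold higher in round spermatids and passed (limma adjusted p = 0.00178). Eef1e1, a part of the tRNA synthetase complex, was 1.92-fold higher in pachytene spermatocytes. Eef2, the translocase, differed by -0.06 ± 0.11 and did not pass, except with quantile normalization (-0.20).

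The genes grouped here as modifiers of elongation factors went 2 in each direction, with Eefsec counted among them. Eef2kmt, which methylates eEF2, had levels of -4.40, -3.76, -4.30, -5.40 and -4.46 in the saline pachytene arrays and of -2.89, -2.20 and -1.86 (lowest, median and highest) in round spermatids, where it was 4.51-fold higher (3.16 to 6.43). Its log2 difference was 2.17 in the main fit and 1.42 to 2.35 over the alternatives run. Eef2k, the kinase that inactivates eEF2, was 1.58-fold higher in round spermatids (1.23 to 2.03), with overlapping arrays. Eef1akmt1, which methylates eEF1A, was 1.59-fold higher in pachytene spermatocytes. Eefsec, grouped with them here, inserts selenocysteine and was 1.91-fold higher in pachytene spermatocytes (1.63 to 2.25).

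The termination factors also split between relatives. Gspt1 and Gspt2 encode the eRF3 GTPases that work with eRF1 at the stop codon. Gspt1 (chromosome 10 from 4867687 to 4904186) had levels of 1.95, 1.60, 1.71, 2.03 and 1.48 in the pachytene spermatocytes of saline rats 13, 16, 25, 26 and 28, and of -0.17, 0.32 and 0.63 (lowest, median and highest) in round spermatids. Gspt2 (chromosome X from 63582649 to 63597467) had levels of -3.20, -2.29, -3.23, -3.66 and -3.12 and of -1.01, -0.73 and -0.50. For both genes the arrays of the cell types were apart. Gspt1 was 2.72-fold higher in pachytene spermatocytes (2.20 to 3.36; limma adjusted p = 7.72e-09), and Gspt2 was 5.04-fold higher in round spermatids (3.96 to 6.42; limma adjusted p = 3.16e-11). Etf1, which encodes eRF1, was 1.94-fold higher in round spermatids (1.66 to 2.27).

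The sequences around the starts of these 2 genes are shown because the pair moved in opposite directions. They are RefSeq sequences of build GRCr8, each of 300 bases from 250 before to 50 after the annotated start, read 5′ to 3′ on the plus strand. The start used is that of a RefSeq transcript, and it lies inside the gene range given above. Capitals mark TGACG or its reverse complement, the short form of the cAMP response element that CREM, an activator of spermatid genes, is known to bind.
Gspt1, chr10:4869299-4869598: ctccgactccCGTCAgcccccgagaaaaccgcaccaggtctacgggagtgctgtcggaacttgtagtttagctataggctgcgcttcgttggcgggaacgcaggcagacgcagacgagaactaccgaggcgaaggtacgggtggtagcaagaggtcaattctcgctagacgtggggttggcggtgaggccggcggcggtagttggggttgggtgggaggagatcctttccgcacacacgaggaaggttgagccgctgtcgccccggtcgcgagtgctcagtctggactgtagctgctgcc
Gspt2, chrX:63582495-63582794: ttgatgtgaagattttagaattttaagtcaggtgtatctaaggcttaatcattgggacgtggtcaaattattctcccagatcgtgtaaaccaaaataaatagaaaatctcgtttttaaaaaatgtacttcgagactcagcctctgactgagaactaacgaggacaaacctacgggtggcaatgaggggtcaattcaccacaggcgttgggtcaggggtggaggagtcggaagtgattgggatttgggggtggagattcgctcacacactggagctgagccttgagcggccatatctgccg
The Gspt1 sequence held 28 CG dinucleotides and 1 such site, and the Gspt2 sequence held 11 CG dinucleotides and no match. Searched on both strands, the short site was in 21.2% of all 33469 such sequences and in 25 of the 65 of them that belong to translation genes (38.5%). The full site TGACGTCA, whose matches also count as short sites, was in 1.8% of all and in 1 of the 65, that of Eef2. The median number of CG dinucleotides was 7 over all sequences and 23 over those of the translation genes. These matches describe the letters of the window.

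**Figure D2:**
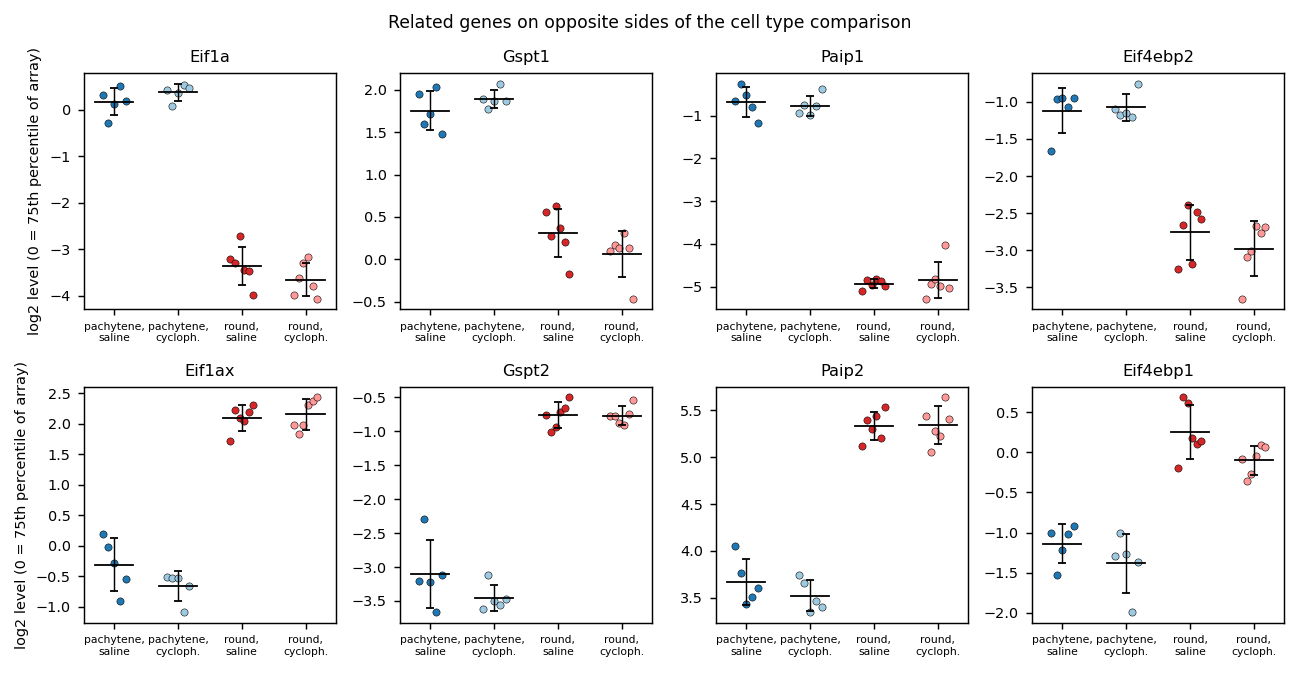
Log2 level (y axis; 0 is the array's 75th percentile, with a scale of its own in each panel) of 4 pairs of related genes by group; points are arrays, lines group means and bars 1 SD. By the probe used for each gene, Eif1a, Gspt1, Paip1 and Eif4ebp2 in the upper row are higher in pachytene spermatocytes. Eif1ax, Gspt2, Paip2 and Eif4ebp1 in the lower row are higher in round spermatids. Both rows hold in both treatments and with no overlap between cell types. The other probes of Eif1ax and Paip2, not drawn, did not pass in either treatment.

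Of the proteins that act on poly(A) binding protein, Paip1 had the largest difference of the 66 genes. Paip1, which binds it and stimulates initiation, lies on chromosome 2 from 53255916 to 53282965. Its levels were -0.66, -0.26, -0.51, -0.80 and -1.18 in the pachytene spermatocytes of saline rats 13, 16, 25, 26 and 28, and -5.10, -4.92 and -4.81 (lowest, median and highest) in the round spermatids of the 6 saline rats. The groups lay far apart, and Paip1 was 19.0-fold higher in pachytene spermatocytes (14.7 to 24.6; log2 difference -4.25 ± 0.18 SE; limma adjusted p = 1.81e-14). A second probe gave 17.6-fold, and over the alternatives run the log2 difference of Paip1 was -4.40 to -3.09. Paip2, which displaces poly(A) binding protein from mRNA and represses translation, had levels of 4.05, 3.76, 3.43, 3.51 and 3.60 in the pachytene arrays and of 5.12, 5.35 and 5.53 in round spermatids. It was 3.17-fold higher in round spermatids (2.65 to 3.79), but its other probe differed by 0.16 ± 0.10 and did not pass (limma adjusted p = 0.140).

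The poly(A) binding proteins themselves did not share a direction. Pabpc1, the main cytoplasmic form, had levels of 7.42, 6.93, 7.15, 7.41 and 7.24 in the pachytene arrays and of 6.72, 7.05 and 7.25 in round spermatids, overlapping, with a difference of -0.22 ± 0.14 that did not pass. With quantile normalization it passed at -0.34 (limma adjusted p = 0.000832). Pabpc4, the inducible form, was 3.12-fold higher in pachytene spermatocytes (2.40 to 4.06), by a second probe 3.08-fold, and Pabpc6 was 2.22-fold higher there (1.56 to 3.16). Pabpc2, a testis-enriched relative, was 1.43-fold higher in round spermatids (limma adjusted p = 0.0458). It no longer passed once slide was a block (0.63, limma adjusted p = 0.0546) and without saline pachytene rat 16, 25 or 28 or saline round spermatid rat 17, 25, 28 or 29, with differences of 0.35 to 0.53, and within slide 1 the difference was -0.06.

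Both chromosome X genes that were higher in round spermatids, Eif1ax and Gspt2, have an autosomal relative that was higher in pachytene spermatocytes. The third tested gene on X, Eif2s3, did not pass in saline rats (-0.30 ± 0.19) and was higher in pachytene spermatocytes of cyclophosphamide rats (-0.59 ± 0.19; limma adjusted p = 0.00752). The X chromosome is known to be silenced in pachytene spermatocytes. Of 334 tested genes that the RefSeq table places on X, 58.1% were higher in round spermatids and 24.3% in pachytene spermatocytes, and the median log2 difference was 0.88. On the autosomes the shares were 38.0% and 39.7% of 10879 genes, with a median of -0.02. The part of the chromosome in the values of Eif1ax and Gspt2 was not tested.

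The probes of a gene did not always share a direction. Among genes that passed, 13 other probes of 12 translation genes could be tested in saline rats. Of these, 7 passed in the same direction, 4 in the opposite direction (Eif3j, Eif4b, Eif4e and Eif4e3) and 2 did not pass (Eif1ax and Paip2). The genes with a reversed or failing probe were all counted as higher in round spermatids by their brightest probe. Of the genes whose other probes agreed, Eef1d and Eef1g were higher in round spermatids. Eif2b3, Eif4g2, Pabpc4 and Paip1 were higher in pachytene spermatocytes. Over all named genes, 205 of 1518 other probes passed in the opposite direction (13.5%), against 30.8% here, a difference that was not tested. The positions of the probes on the transcripts were not analysed here.

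**Figure D3:**
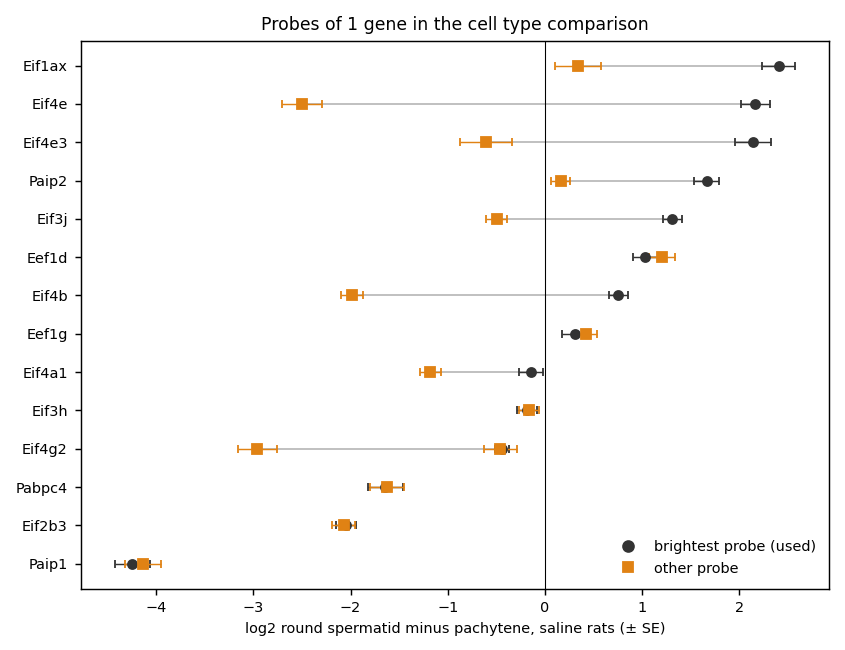
Log2 difference between round spermatids and pachytene spermatocytes of saline rats (x axis; bars, ± SE) for each gene with several tested probes; dark circles are the brightest probe, which was used, and orange squares the other probes. The probes of Paip1 (-4.25 and -4.14) and Eif2b3 (-2.05 and -2.07) lie together, and those of Eif4e (2.16 and -2.50) lie on opposite sides of 0.

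The cell types were compared a second time in the cyclophosphamide rats, whose arrays are separate from those of the saline rats. Here 65 genes could be tested, of which 36 were higher in pachytene spermatocytes (55.4%) and 16 in round spermatids (24.6%), against 40.4% and 39% of all genes tested. By more than 2-fold, 19 were higher in pachytene spermatocytes (29.2%) and 10 in round spermatids (15.4%), against 24.3% and 27.3% of all genes. The median was -0.40, against -0.02 over all genes. The other probes of Eif3j, Eif4b, Eif4e and Eif4e3, all counted among the 16, again passed in the opposite direction. Every round spermatid array lay below every pachytene array for 33 genes and above for 15, where these shares over all genes were 34.5% and 32.7%. Of 65 genes tested in both treatments, 31 were higher in pachytene spermatocytes in both, 16 higher in round spermatids in both, and 0 passed in opposite directions. Eef1g and Pabpc2 passed in saline rats alone, and Eif2s3, Eif3h, Eif4a3, Eif5a2 and Pabpc1 in cyclophosphamide rats alone, which is no test that the treatments differ. Eef1g also passed in cyclophosphamide rats without round spermatid rat 15 or 25 (0.34 and 0.32), and by its second probe (1.32-fold; limma adjusted p = 0.00257). The calls of Eif4a3 and Eif2s3 in cyclophosphamide rats ended with scan day as a block (-0.20) and with the mean of the probes (-0.38). With rat number as a block, those of Eif3h, Eif4a3, Eif5a2 and Pabpc1 ended too. Within slides 1 and 2 the difference of Pabpc1 there was -0.06 and -0.58, and neither passed. Across the 65 genes the log2 differences of the 2 treatments correlated at r = 0.993, a description over genes, which are not independent.

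In cyclophosphamide rats Paip1 was 17.0-fold, Eif1a 16.3-fold, Eif4a2 15.4-fold and Eif2b1 7.30-fold higher in pachytene spermatocytes. Eif1ax was 7.02-fold, Gspt2 6.42-fold, Eef2kmt 6.48-fold and Paip2 3.53-fold higher in round spermatids. The other probes of Eif1ax and Paip2 differed by 0.24 ± 0.24 and 0.01 ± 0.10 on the log2 scale in these rats and did not pass. All round spermatid arrays were on slides 1 and 2, each of which held 1 pachytene array of each treatment, so values within a slide assume that this array varied as the other groups did. Within slides 1 and 2, the saline difference was -4.31 and -4.39 for Paip1, -3.43 and -3.89 for Eif4a2, -3.44 and -3.71 for Eif1a, 1.75 and 2.52 for Eif1ax, and 2.40 and 2.50 for Gspt2. With slide as a block, 29 genes were higher in pachytene spermatocytes and 15 in round spermatids of saline rats, and all 50 called in the comparison without the block kept their direction. The calls of Eef1g, Eif2ak3, Eif2b4, Eif2d, Eif3g and Pabpc2 ended with that block. Of the other genes, within a slide alone the direction stayed but the call ended for Eef1akmt1, Eif3e and Eif5a on both slides, for Eif1ad (-0.74), Eif2s1 (0.30), Eif3c (-0.51) and Eif4g2 (-0.39) on slide 1, and for Eef2k (0.77), Eif3d (-0.52) and Pabpc6 (-0.89) on slide 2.

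Regulators and partners of these factors also differed between the cell types of saline rats. Of 18 tested genes listed as kinases, phosphatases and sensors upstream of the factors, 15 were higher in pachytene spermatocytes and 1 in round spermatids. For this list and those that follow, the shares of all genes tested were 36.9% and 38.5%. Rps6kb1, the S6 kinase, was 4.03-fold, Mknk1, a kinase of eIF4E, 3.02-fold and Mtor 1.31-fold higher in pachytene spermatocytes. Atf4, a stress transcription factor translated when eIF2 is phosphorylated and so downstream of eIF2, was 3.48-fold higher there. Tsc1, which restrains mTOR, was 2.49-fold higher in round spermatids. Of 20 factors of ribosome rescue, recycling and reinitiation, 13 were higher in pachytene spermatocytes and 1 in round spermatids. Abce1, which splits ribosomes after termination, was 4.13-fold and Dph2, which helps build the diphthamide of eEF2, 6.88-fold higher in pachytene spermatocytes. Dohh, which completes the hypusine of eIF5A, was 1.46-fold higher in round spermatids.

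Of 26 genes that set the length of the poly(A) tail, 12 were higher in each cell type, near the shares of all genes. Papolb, the testis poly(A) polymerase, was 2.61-fold, Papola 3.10-fold, Tent5d, another poly(A) polymerase, 4.60-fold, and Btg4, which recruits the deadenylase, 5.88-fold higher in round spermatids. Papolg was 6.71-fold and the deadenylase Cnot8 5.85-fold higher in pachytene spermatocytes. Of 21 mRNA-binding regulators of translation, 10 were higher in pachytene spermatocytes and 6 in round spermatids. Among them the m6A reader Ythdf3 was 6.23-fold and Pum2 3.21-fold higher in pachytene spermatocytes, while Fmr1, which encodes an RNA-binding protein that represses translation, was 3.56-fold higher in round spermatids. Dazl, a germ cell RNA-binding protein that binds poly(A) binding protein, differed by 0.34 ± 0.23 and did not pass. These genes were picked as examples after their values were seen.

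None of the 65 tested translation genes passed for cyclophosphamide against saline in pachytene spermatocytes at an adjusted p under 0.05 (limma; smallest adjusted p = 0.678), and 0% of all 18854 genes tested passed. At an unadjusted p under 0.05, 1 translation gene was higher and 1 lower, that is 1.54% each, against 1.99% and 5.37% of all genes. For 64 of the 65 genes the 95% interval lay within a 2-fold change in either direction, which held for 93.4% of all genes, and the exception was Eif2ak2 (0.42; interval -0.39 to 1.24 on the log2 scale). The median log2 difference, cyclophosphamide minus saline, was 0.06, against 0.04 over all genes.

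Eif4e3 had levels of -3.68, -3.73, -4.04, -4.40 and -4.10 in pachytene spermatocytes of saline rats 13, 16, 25, 26 and 28, and of -4.35, -4.36, -4.07, -4.51 and -4.96 in those of cyclophosphamide rats 7, 15, 16-2011, 16-2012 and 29. The groups overlapped, and the difference was -0.46 (95% interval -0.86 to -0.06; limma unadjusted p = 0.0270, adjusted p = 0.678). Within slides 1 to 4 it was -0.68, -0.92, -0.11 and -0.44. The other probe of Eif4e3 had means of -5.00 ± 0.48 (SD, n = 5) in saline and -5.07 ± 0.41 (SD, n = 5) in cyclophosphamide pachytene spermatocytes. Eif3h had levels of 3.75, 3.33, 3.71, 3.70 and 3.42 in saline rats and of 3.87, 3.63, 3.74, 3.86 and 3.92 in cyclophosphamide rats, a difference of 0.22 (0.00 to 0.45; limma unadjusted p = 0.0484, adjusted p = 0.678) that was -0.12 within slide 1 and 0.21, 0.39 and 0.35 within slides 2 to 4. The other probe of Eif3h had means of -0.01 ± 0.21 in saline and 0.29 ± 0.16 in cyclophosphamide rats (SD, n = 5 each).

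Next by unadjusted p came Gspt2 (-0.36), Eif1ax (-0.35), Eif4e (-0.26) and Eif4ebp1 (-0.24) on the lower side and Eif4g2 (0.15), Eef2 (0.22), Eef1a1 (0.17) and Eif4a2 (0.29) on the higher side, none of which passed. The dimmer probe of Eif4e went the other way, with means of -1.94 ± 0.47 in saline and -1.82 ± 0.14 in cyclophosphamide rats (SD, n = 5 each). Means of the other probes of Eif1ax and Eif4g2 differed in the same direction as the probes used. Eif4a2 had levels of 2.27, 2.07, 2.41, 2.28 and 2.34 in saline and of 2.46, 2.40, 2.56, 2.75 and 2.63 in cyclophosphamide pachytene spermatocytes, overlapping through saline rat 25 and cyclophosphamide rat 15. Gspt2, Eif1ax and Eif4ebp1 were higher in round spermatids than in pachytene spermatocytes, the probes of Eif4e and Eif4e3 went opposite ways in that comparison, and Eif4g2, Eef1a1 and Eif4a2 were higher in pachytene spermatocytes. The saline pachytene arrays enter both comparisons. Round spermatid markers in the pachytene fractions had array means of 1.57 to 2.25 in saline rats and 1.46 to 1.92 in cyclophosphamide rats. Of 20 such markers 16 lay below 0 for cyclophosphamide minus saline, with a median of -0.33, and of 10 late spermatid markers 9 lay below 0, with a median of -0.38, while 0 of either list passed. All 10 macrophage and leukocyte markers also lay below 0 (median -0.26), with array means of -3.46 to -2.98 in saline and -4.20 to -3.04 in cyclophosphamide rats. The part of round spermatids or other cells in the differences of the translation genes was not tested.

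**Figure D4:**
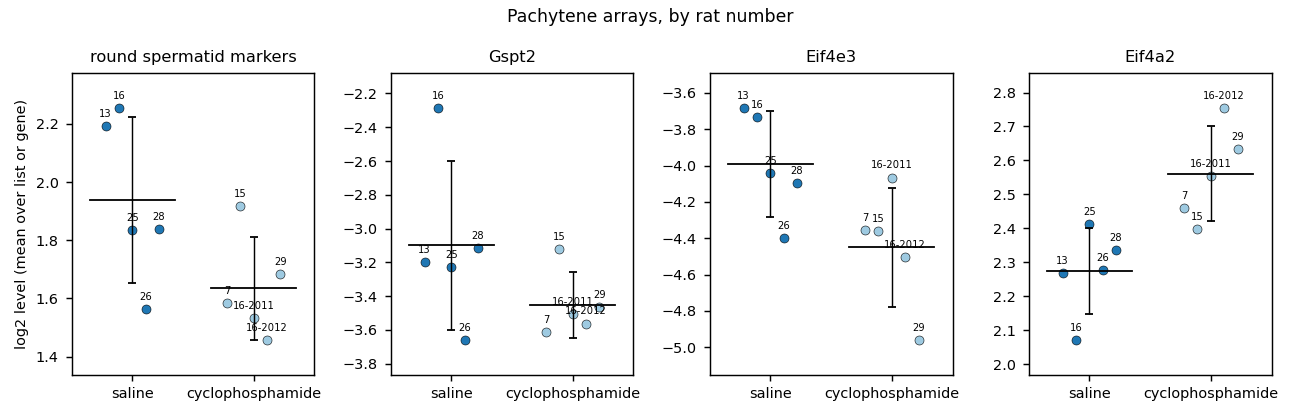
Log2 level on each pachytene array (y axis, own scale in each panel; points are rats, named by number; lines, means; bars, 1 SD) of the mean of 20 round spermatid markers, Gspt2, Eif4e3 and Eif4a2, in saline and cyclophosphamide rats. The marker mean is 1.57 to 2.25 in saline and 1.46 to 1.92 in cyclophosphamide rats, and in each panel the treatments overlap.

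In round spermatids, too, 0 of 65 translation genes passed, where 0% of all 19242 genes tested did. At an unadjusted p under 0.05, 0 were higher and 1 was lower, against 1.93% and 1.39% of all genes. All 65 intervals lay within a 2-fold change in either direction, which held for 95.7% of all genes. The 1 gene was Eif4ebp1, whose levels were -0.20, 0.16 and 0.69 (lowest, median and highest) in saline and -0.36, -0.06 and 0.10 in cyclophosphamide round spermatids. The ranges overlapped, with a difference of -0.35 (-0.69 to -0.01; limma unadjusted p = 0.0423). By unadjusted p, Eif4a3 (-0.15), Gspt1 (-0.25), Eef1a1 (-0.14) and Eif1a (-0.30) followed on the lower side, and Eef2k (0.26), Eef2kmt (0.30), Eif5b (0.15), Eef2 (0.09) and Eif1b (0.09) on the higher side. None of these passed.

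Whether the effect of cyclophosphamide differed between the cell types was tested for 66 translation genes, and 0 passed at an adjusted p under 0.05 (limma; smallest adjusted p = 0.630), as did 0% of all 20068 genes tested. At an unadjusted p under 0.05, 0 were higher and 2 lower, Eef1a1 (-0.31 ± 0.12) and Eif3h (-0.36 ± 0.15), against 5.03% and 2.67% of all genes. For 61 of the 66 (92.4%) the interval of this difference lay within 2-fold in either direction, which held for 75.6% of all genes. The largest estimates were 0.52 for Eef2kmt (-0.20 to 1.25) and -0.50 for Eif1a (-1.07 to 0.07).

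**Figure D5:**
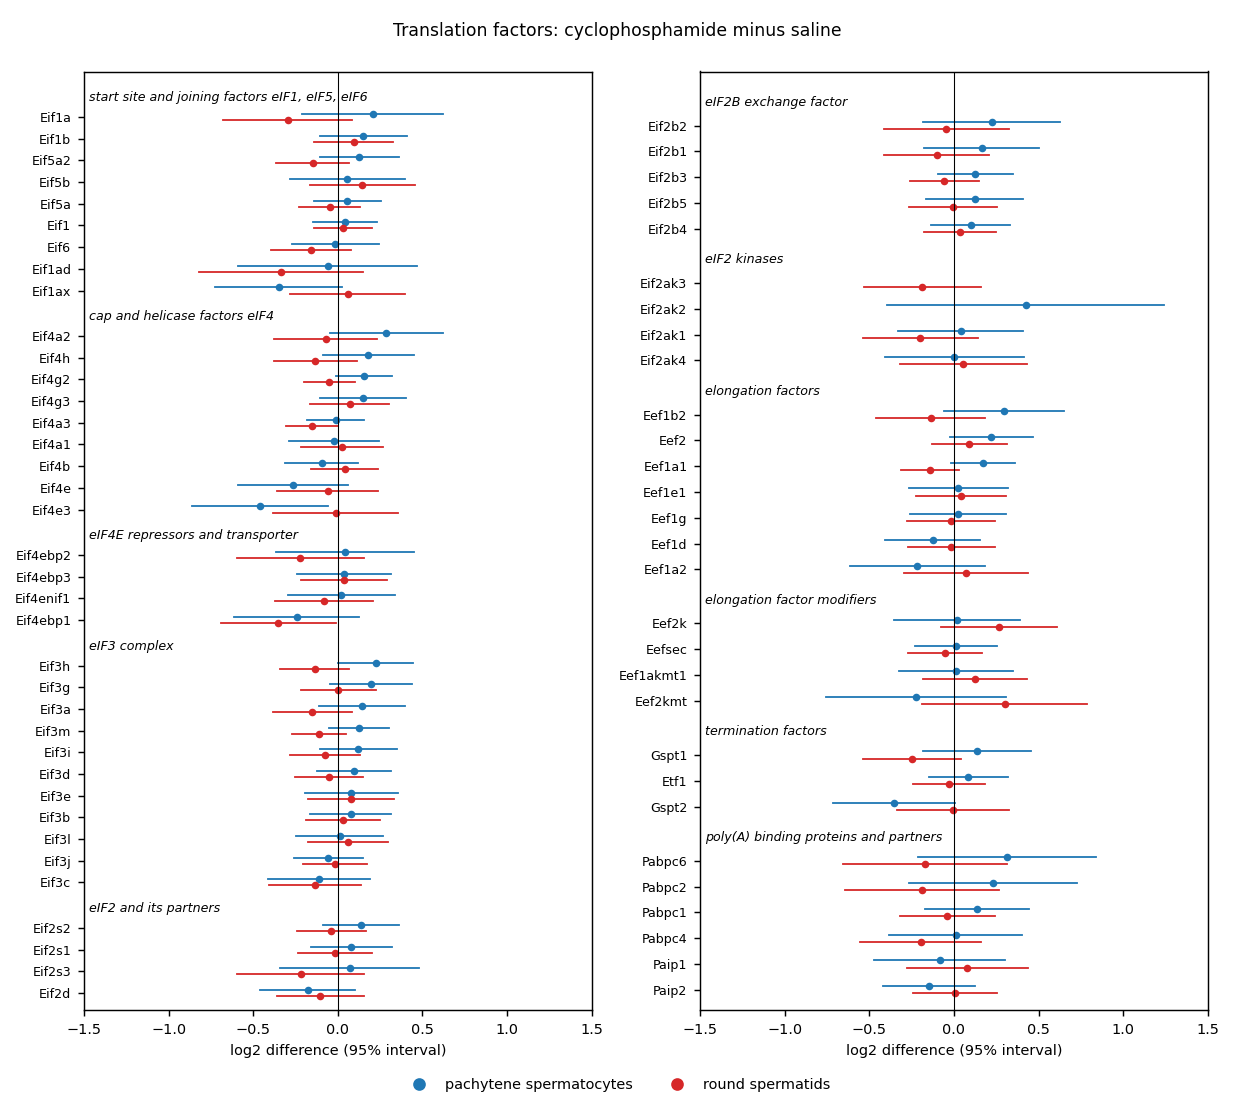
Log2 difference between cyclophosphamide and saline rats (x axis; points, limma estimates; bars, 95% intervals) for each tested gene, grouped by role, in pachytene spermatocytes (blue) and round spermatids (red). Estimates lie between -0.46 (Eif4e3) and 0.42 (Eif2ak2) in pachytene spermatocytes and between -0.35 (Eif4ebp1) and 0.30 (Eef2kmt) in round spermatids, and no gene passed in either.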

How the data were processed

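Spot intensities came from the deposited Agilent scanner files. Per the file headers these were made with Feature Extraction 10.7.3.1, and the submitters' processing notes name 11.5.1.1. The processed signal is an intensity that the scanner software had corrected for background, per the file headers. The deposited value table holds log2 values that matched quantile-normalized signals centred within each cell type, and the treatment comparisons were repeated on it. Its scale, centring and direction were read from that match.

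Control and outlier spots were left out, spots of a probe were averaged, and log2 intensities were set relative to the 75th percentile of each array. Of 30367 probes, 37 lacked a usable spot on at least 1 array and were left out. RefSeq accessions named 17978 of the 30330 probes used (59.3%) with 15144 symbols (GRCr8). A gene was tested where more than 0.5 of its spots were well above background on all but at most 1 array of a group compared. One limma 3.58.1 model (R 4.3.3; lmFit, eBayes) of 4 group means was fitted to 22 arrays, with Benjamini-Hochberg adjustment over all genes tested and a threshold of 0.05. The number of arrays limits the precision. The procedure was checked on simulated data. For treatment, a log2 change of 0.5 was recovered for 9.5% of changed genes in pachytene spermatocytes and 19% in round spermatids. A log2 change of 1 was recovered for 78.5% and 79%. Most changes of the smaller size would therefore be missed. Tables and drawings used matplotlib 3.10.9, pandas 2.3.3 and numpy 2.4.6 in Python 3.11.15. The normexp alternative (offset 50) used median spot signals, since mean signals were not analysed here.

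The genes, roles and marker lists were chosen with earlier results of these data known. Named genes were, in each role, the 2 largest rises and falls that passed without overlap, all members of the related-gene sets, and, for treatment, the 5 smallest unadjusted p in each direction. Members outside this rule were named to complete a role, after their values were seen. Alternatives were other filters, backgrounds, scalings, probes, slide and rat number as blocks, single slides, and each array left out. Slide 1 held 8 arrays, slide 2 held 8, and slides 3 and 4 held 3 pachytene arrays each.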

Additional observations from a re-analysis of the deposited data

Results flagged for a closer look

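Single arrays stood apart from the rest of their group, by the gap to the nearest array relative to the group's range, for 10 of 212 sets of levels. Chance gives about 1 in 20. Low arrays were cyclophosphamide pachytene rat 16-2011 for Eef1akmt1 (log2 level -1.77, the others -1.53 to -1.47), cyclophosphamide pachytene rat 16-2012 for Eif1ax (-1.08, the others -0.65 to -0.51), and saline pachytene rat 13 for Eif4ebp2 (-1.66, the others -1.07 to -0.95). Saline round spermatid rat 15 was low for Eif1b (2.06, the others 2.42 to 2.61) and Eif3j (1.17, the others 1.35 to 1.42). Cyclophosphamide round spermatid rat 27 was low for Eefsec (1.91, the others 2.14 to 2.26) and Gspt1 (-0.46, the others 0.10 to 0.32). High arrays were cyclophosphamide pachytene rat 29 for Eif4ebp2 (-0.76, the others -1.20 to -1.10), cyclophosphamide round spermatid rat 26 for Paip1 (-4.03, the others -5.28 to -4.83), and saline pachytene rat 26 for Pabpc4l (-7.17, the others -8.47 to -8.23), where the gene was not well above background on any array.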

How the results depend on the processing

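The counts of genes higher in either cell type stayed within 1.5 times the reported ones, and the treatment counts and the difference between cell types stayed at 0, under each alternative run. In saline rats, leaving out 1 array at a time gave 15 to 19 genes higher in round spermatids and 31 to 33 higher in pachytene spermatocytes. Within slides 1 and 2 the counts were 14 and 14 higher in round spermatids and 23 and 24 in pachytene spermatocytes, and quantile normalization gave 16 and 37. Single genes that turned sign were Eif2ak3 with normexp correction (-0.024), Eif4e and Eif4b with the mean of their probes (-0.17 and -0.61 in saline rats, -0.20 and -0.65 in cyclophosphamide rats), Pabpc2 within slide 1 (-0.062), and the other probes of Eif3j (-0.50), Eif4b (-1.99), Eif4e (-2.50) and Eif4e3 (-0.61). The means and other probes of a gene mix or replace probes by construction; for the rest the cause was not tested. Scan day as a block, arrays of scan day 1 alone and other probes on their own were added after seeing the data. With rat number as a replicate block, 15 genes were higher in round spermatids and 28 in pachytene spermatocytes of saline rats, and 15 and 27 in cyclophosphamide rats, with 0 in round spermatids by treatment and 0 for the difference between effects. Only numbers found in both cell types inform the cell type difference there: 16, 25 and 28 in saline rats, and 15 and 16 in cyclophosphamide rats. For treatment in round spermatids, the block joined saline and cyclophosphamide rats of equal number (15, 16 and 25), although they were treated differently. Deviations from group means correlated at -0.08 to 0.38 (median 0.065) for 6 pairs of same-numbered arrays of the cell types. For 54 other pairs they correlated at -0.34 to 0.36 (median -0.018). Such overlapping ranges cannot decide whether equal numbers name the same animal, and the main fit did not use pairs. Under that block the calls of Eef1g, Eef2k, Eif2ak3, Eif2b4, Eif2d, Eif3g and Eif5a ended in saline rats, and those of Eef1akmt1, Eif2b4, Eif2d, Eif2s1, Eif3e, Eif3g, Eif3h, Eif4a3, Eif5a, Eif5a2 and Pabpc1 in cyclophosphamide rats, where 41 of 52 calls stayed. With both arrays of cyclophosphamide pachytene rat number 16 counted as 1 sample, 16 genes were higher in round spermatids and 36 in pachytene spermatocytes of cyclophosphamide rats, and 0 passed for treatment in pachytene spermatocytes. The pachytene treatment groups share 1 rat number, and no paired fit was made there. Genes near background, such as Eif2ak2 and Eif2ak3, and the 1 pachytene array per treatment on each of slides 1 and 2, assumed to vary like the other groups, limit what could be seen.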
